A study of Mus musculus with 23 samples.

Results

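The change between day 1 and day 3 of differentiation was examined in control cells of C2C12, a mouse myoblast line that multiplies in serum-rich medium and forms contractile myotubes when serum is withdrawn. The comparison used 6 of the 23 poly(A) RNA libraries of the series, 3 from control (WT) cells on day 1 and 3 from control cells on day 3, all in differentiation medium with 2% horse serum. They were chosen by their labelled genotype and day. The labels do not say how the control cells were made, whether they are 1 clone, or whether the replicates are separate cultures, so the p-values measure only the spread between replicate libraries (estimated over all 23), which may be technical. The other 17 libraries came from control cells in growth medium with 20% fetal bovine serum (2 libraries), from control cells on day 6 of differentiation (3), and from cells labelled Runx1KO in growth medium and on days 1, 3 and 6 (3 each). The question was which genes changed in the interval after the first day of low serum, apart from any change between growth medium and day 1.

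Differentiation of a myoblast runs through a sequence of regulators. The basic helix-loop-helix factors Myod1 and Myf5 mark the committed myoblast, myogenin (Myog) is switched on as the cell leaves the cell cycle, and Mef2 factors act with it at the genes of the contractile apparatus. Id proteins and the Hes and Hey repressors of the Notch pathway hold this sequence back. Mononucleated cells then fuse through the membrane proteins myomaker (Mymk) and myomixer (Mymx), and the fused cells assemble thick and thin filaments, Z-discs and the calcium release system. C2C12 cultures usually do not differentiate completely, and cells that stay single go on dividing or rest as reserve cells.

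The 6 libraries held 22410191 to 22839452 estimated counts each, so 3 counts, taken as the floor of detection, corresponded to 0.127 to 0.131 CPM (counts scaled to the TMM-normalised library size). Replicates of a day differed by more than sampling noise, with a chi-square of 3.10 to 7.27 per degree of freedom, and were treated as separate samples. In a principal component analysis of the 11 control libraries the first component, with 61.1% of the variance, placed day 1 between -13.6 and -11.0 and day 3 between 26.1 and 30.7. Marker lists matched the muscle label: the summed level of 7 myotube markers went from 48.8 to 88.2 CPM on day 1 to between 2054 and 2245 CPM on day 3, and all 7 rose. Markers of adipocytes, chondrocytes, endothelial cells and immune cells summed to at most 1.82 CPM in each of the 6 libraries. Schwann cell and neural markers summed to between 76.2 and 85.5 CPM on day 1 and between 59.4 and 85.1 CPM on day 3, with 2 of 6 tested, neither called, and Sox10 at 0. In bulk RNA, more differentiated cells and more RNA per differentiated cell cannot be told apart.

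Of 14187 genes tested with edgeR's quasi-likelihood test, 2797 (19.7%) had a Benjamini-Hochberg adjusted p under 0.05 between day 1 and day 3. There were 1566 genes higher on day 3 (11.0% of those tested) and 1231 lower (8.68%), with a median log2 fold change (log2FC) over all tested genes of 0.02. Among the genes that rose, 467 had a fitted log2FC of at least 1 and 72 of at least 4, and 24 of either number had a count of 0 in every day 1 library, so that their size is not known. Among those that fell, 194 had a fitted log2FC of -1 or less and 3 of -4 or less, and these 3 had a count of 0 in every day 3 library. Most calls were modest, since 1099 of the higher and 1037 of the lower genes changed by less than 1 on the log2 scale.

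**Figure D1:**
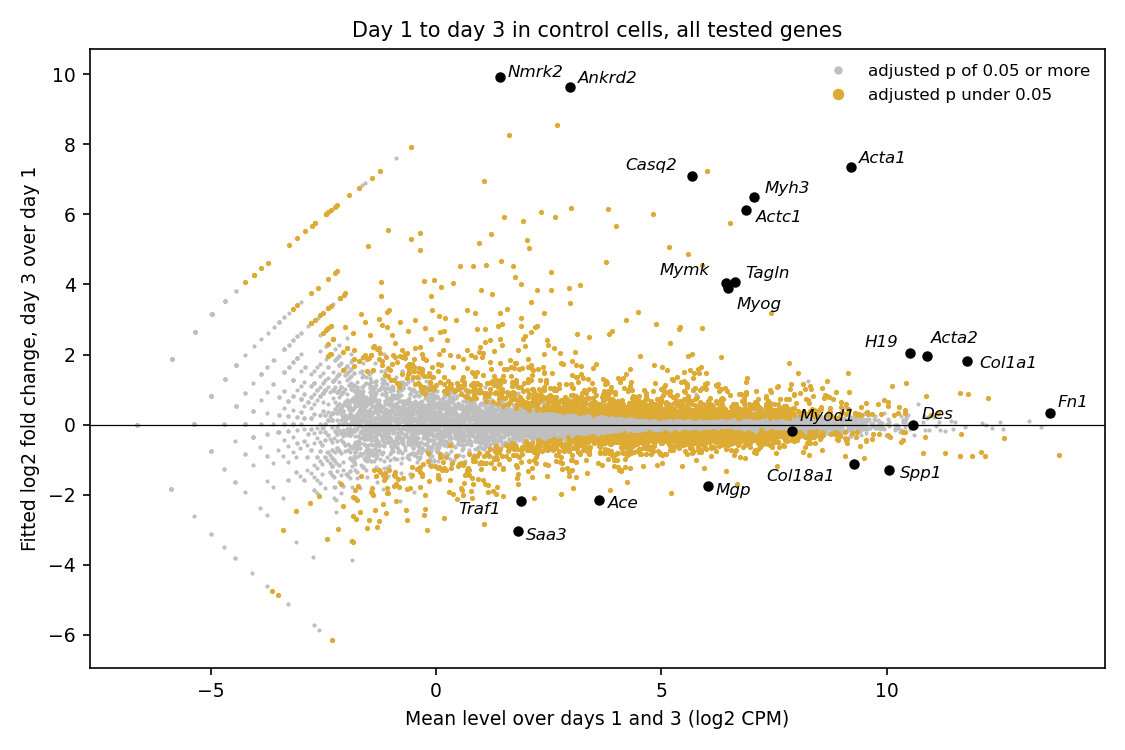
Each point is 1 of the 14187 tested genes, with the mean level over both days on the x axis (log2 CPM) and the fitted log2 fold change of day 3 over day 1 on the y axis; coloured points have an adjusted p under 0.05 and black points are named. The contractile genes Acta1, Actc1 and Myh3 lie in the upper arm, with Acta1 at 7.36, while the lowest black point is Saa3 at -3.04. The straight diagonals at the left are genes with a count of 0 on 1 of the days, whose fitted values are no measure of size.

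Myog, the factor that commits myoblasts to terminal differentiation (chromosome 1, 134290004 to 134292548, GRCm38), stood at 10.6, 5.05 and 18.0 CPM in day 1 replicates 1, 2 and 3. On day 3 it stood at 173, 158 and 173 CPM. All day 3 libraries were far above all day 1 libraries, and the day 1 libraries themselves spanned more than a 3-fold range. The log2FC was 3.91 ± 0.29 (SE; edgeR adjusted p = 6.24e-10), a 15-fold rise. The next largest rise in the list of myogenic factors had a log2FC of 1.14.

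The 34 myogenic transcription factors held 31 tested genes, of which 7 rose, 6 fell and 18 did not pass the test. Their median log2FC was -0.05, beside 0.02 over all tested genes. Myod1 stood at 252, 224 and 281 CPM on day 1 and at 237, 221 and 208 CPM on day 3, and the groups overlapped (log2FC -0.18 ± 0.15, edgeR adjusted p = 0.431). Its relative Myf5 and the paired-box factor Pax7, a marker of the muscle stem cell state, fell slightly. Myf5 went from 52.2 ± 1.41 to 42.9 ± 0.961 CPM (SD, n = 3 each; log2FC -0.28) and Pax7 from 74.8 ± 5.04 to 52.5 ± 2.42 CPM (log2FC -0.51).

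Mef2a and Mef2d, cofactors of the myogenic factors, were already present on day 1, at 164 ± 8.27 and 180 ± 3.54 CPM, and did not pass the test (log2FC -0.03 and 0.15). Mef2c was listed at a count of 0 in all 6 libraries, which does not show its absence, since differentiating myoblasts are known to express it and the assignment of its reads was not checked. Myf6, the factor of mature fibres, had between 0 and 15 counts per library and did not pass. Vgll3, a cofactor of Tead proteins, rose from 21.3 ± 1.71 to 46.8 ± 0.788 CPM (log2FC 1.14, edgeR adjusted p = 2.01e-08), and Tead4 and the muscle methyltransferase Smyd1 rose by 0.70 and 0.80 on the log2 scale. Runx1, the gene named in the knockout label of the study's other arm, rose from 104, 108 and 95.6 CPM to 153, 148 and 145 CPM (log2FC 0.54 ± 0.083, edgeR adjusted p = 3.86e-05).

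The antagonists of this programme split into opposite directions. Of 27 tested members of the Id, Notch and Hey list, 9 rose and 6 fell, with a median log2FC of 0.19. The Id proteins, which sequester the partners of Myod1, fell: Id3 stood at 6.92, 6.57 and 9.10 CPM on day 1 and at 4.44, 4.94 and 4.29 CPM on day 3 (log2FC -0.72 ± 0.16, edgeR adjusted p = 0.0021). Id1 fell by 0.67 on the log2 scale and Id2 by 0.33. The Notch-responsive repressors moved the other way, Hey1 from 8.99 ± 1.23 to 13.9 ± 0.968 CPM (log2FC 0.63, edgeR adjusted p = 3.9e-05) and Heyl by a log2FC of 0.69. The Notch ligand gene Jag1 rose from 3.79 ± 0.126 to 7.81 ± 1.06 CPM, and musculin (Msc), another repressor of Myod1 activity, from 1.47 ± 0.177 to 3.55 ± 1.03 CPM. No other Notch ligand gene of the list was called higher, and a more abundant ligand gene fell by 0.25 on the log2 scale. Hes1 rose by only 0.28, and its call was lost on omission of 5 of the 6 libraries; that of Heyl was lost without day 1 replicate 2 or day 3 replicate 1, and that of Id1 without day 3 replicate 3. Without day 3 replicate 1 the number of members that rose was 4.

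**Figure D2:**
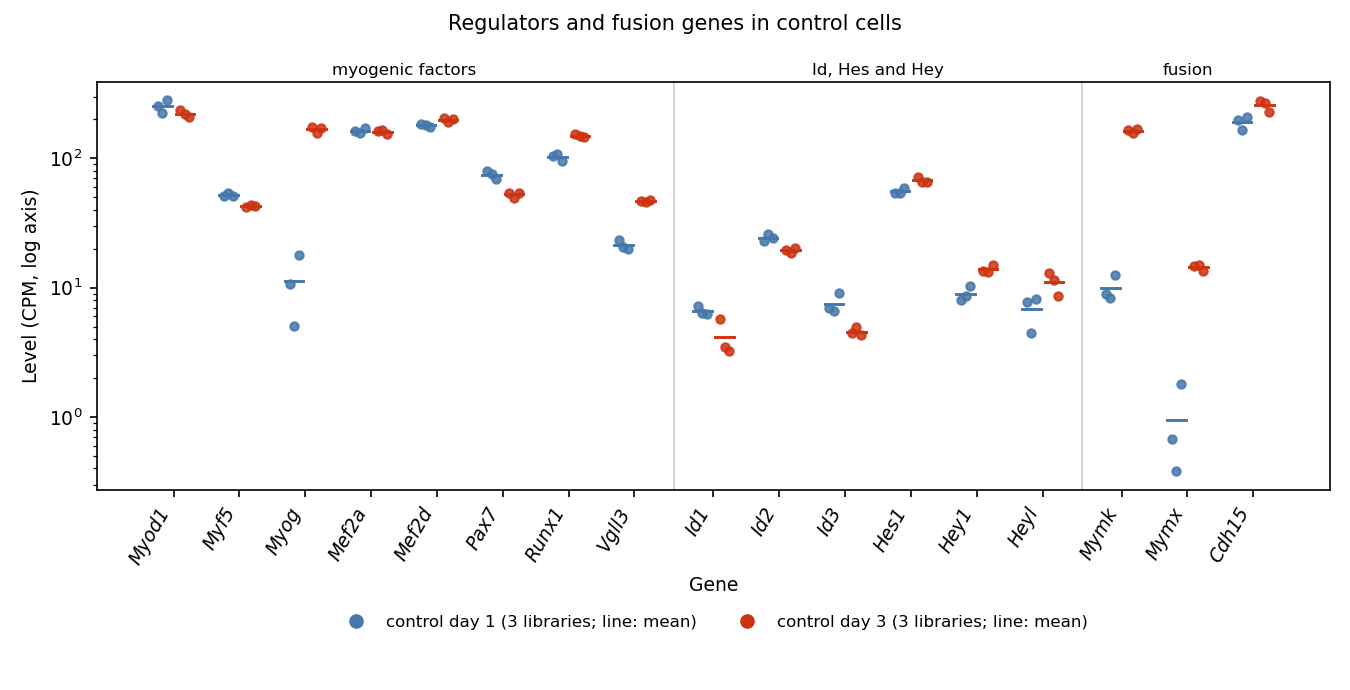
Level of 17 regulators and fusion genes in each control library (CPM, log axis), with day 1 in blue, day 3 in red and a line at each mean of 3 libraries. Myog, Mymk and Mymx rise by about an order of magnitude, with means of 168, 163 and 14.4 CPM on day 3, while Myod1, Mef2a and Mef2d stay near their day 1 levels.

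Both membrane proteins of fusion rose. Mymk, whose protein joins the membranes of fusing myoblasts, went from 8.88, 8.27 and 12.5 CPM to 165, 156 and 168 CPM. Its log2FC was 4.04 ± 0.23 (edgeR adjusted p = 1.01e-11), a 16.4-fold rise. Mymx, the micropeptide that completes fusion pores, went from 0.680, 0.382 and 1.79 CPM to 14.6, 15.1 and 13.5 CPM (log2FC 3.91 ± 0.34, edgeR adjusted p = 7.55e-09), and without day 1 replicate 3, the highest of its group, the log2FC was 4.75. Of 30 tested fusion genes 17 rose and 5 fell, with a median log2FC of 0.29. Leaving out 1 library gave 13 to 15 members that rose. Dysf, a membrane repair protein, rose from 3.56 ± 0.102 to 12.6 ± 1.32 CPM, Adam12 from 23.5 ± 1.96 to 66.5 ± 6.36 CPM, and Cdh15, the adhesion protein M-cadherin, from 190 ± 23.5 to 258 ± 26.4 CPM.

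Ncam1, a cell adhesion molecule of differentiating muscle, rose 1.70-fold in counts, from 289 ± 2.39 to 492 ± 12.7 CPM. In the authors' TPM (a unit that divides by transcript length) its mean went from 79.7 to 212, a larger ratio than in the counts. Members that fell included Jam2 (log2FC -0.59), Tanc1 (-0.43), the ferlin Myof (-0.41) and the netrin receptor Neo1 (-0.33). Elmo1, which relays signals to the actin cytoskeleton, fell from 2.68 ± 0.231 to 1.26 ± 0.131 CPM, a call that was lost without day 1 replicate 1, day 3 replicate 1 or day 3 replicate 2.

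Among the 28 gene lists compared, thick and thin filaments had the largest median rise. Of 20 tested thick filament genes (24 listed) 12 rose and 1 fell, with a median log2FC of 3.04; 3 of the tested members had a count of 0 in every day 1 library, and with these at their lower bounds the median was 2.04. Their summed TPM went from 56.1 ± 6.08 to 1011 ± 53.1, an 18.0-fold rise. Of 19 tested thin filament genes 15 rose and 1 fell (median log2FC 2.77), and their summed TPM went from 1867 ± 63.0 to 5464 ± 159. Of 45 tested Z-disc, titin and M-band genes 30 rose and 0 fell (median log2FC 0.93), and without day 3 replicate 1 a single member was lower. The filter on low counts ran over all 23 libraries and so passed members that were low on both of these days, and the counts describe the tested members only.

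The promoters of 4 contractile genes are printed first because these genes rose 53.5-fold to 165-fold together. Each is the stretch of 250 bases before the RefSeq transcription start on the coding strand (GRCm38.p6), in lower case, with each CAGCTG (an E-box, the kind of site that myogenic helix-loop-helix factors bind) and each CArG box (the site of serum response factor) in capitals. The Acta1 stretch lies at chr8:123894776-123895025 on the minus strand, with the CAGCTG starting 221 bases and the CArG box 73 bases before the start. That of Actc1 lies at chr2:114052876-114053125 on the minus strand, with a CArG box 47 bases before the start. Mylpf (chr7:127211358-127211607, plus strand) and Mybph (chr1:134193198-134193447, plus strand) have a CAGCTG at 51 and 79 bases.
Acta1: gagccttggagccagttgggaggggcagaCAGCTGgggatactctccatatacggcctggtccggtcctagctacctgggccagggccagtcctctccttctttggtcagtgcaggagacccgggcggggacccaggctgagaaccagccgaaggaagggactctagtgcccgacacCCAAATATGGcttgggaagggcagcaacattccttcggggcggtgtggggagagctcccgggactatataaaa
Actc1: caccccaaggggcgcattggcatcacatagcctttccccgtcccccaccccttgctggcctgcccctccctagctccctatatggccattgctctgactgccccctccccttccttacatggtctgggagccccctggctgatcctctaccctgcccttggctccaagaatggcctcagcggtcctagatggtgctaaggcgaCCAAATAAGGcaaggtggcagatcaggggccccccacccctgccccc
Mylpf: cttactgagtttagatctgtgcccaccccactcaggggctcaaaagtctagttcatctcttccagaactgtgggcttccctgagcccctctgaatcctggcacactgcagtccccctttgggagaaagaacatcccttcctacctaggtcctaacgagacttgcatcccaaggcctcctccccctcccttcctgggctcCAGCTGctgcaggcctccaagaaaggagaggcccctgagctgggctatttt
Mybph: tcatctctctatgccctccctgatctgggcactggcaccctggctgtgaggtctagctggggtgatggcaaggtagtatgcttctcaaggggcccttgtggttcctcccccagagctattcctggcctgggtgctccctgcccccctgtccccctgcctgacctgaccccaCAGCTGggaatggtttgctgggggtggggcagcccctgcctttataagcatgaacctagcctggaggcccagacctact

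Windows of 300 bases (250 before and 50 after the start) were found for 48 of the 57 sarcomere genes that rose, giving 58 windows because some genes have several starts. CAGCTG, which reads the same on both strands, was in 31.0% of these windows and in 16.3% of all 32851 windows. The looser CANNTG, which includes CAGCTG, was in 86.2% and 72.3%. A CArG box was in 13.8% against 1.63%. These letter matches are descriptions and no evidence of binding.

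Acta1, skeletal muscle actin, stood at 5.69, 4.79 and 10.8 CPM on day 1 and at 1130, 1139 and 1246 CPM on day 3. The ranges were more than 100-fold apart, and the log2FC was 7.36 ± 0.30 (edgeR adjusted p = 1.17e-14). Actc1, the cardiac actin of embryonic muscle, went from 2.89, 1.87 and 5.13 CPM to 216, 228 and 248 CPM (log2FC 6.13 ± 0.31). Per length, Acta1 reached a mean of 1566 TPM on day 3 and Actc1 313 TPM. Day 1 replicate 3 was the highest and replicate 2 the lowest of its group for both actins, as for Myog and Mymx.

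Myh3, the embryonic myosin heavy chain, went from 3.40, 1.95 and 3.46 CPM to 240, 266 and 288 CPM (log2FC 6.49 ± 0.27, edgeR adjusted p = 2.64e-14). It was the heavy chain of this stage: on day 3 it had a mean of 112 TPM, beside 3.62 TPM for the adult fast chain Myh1 and 0.163 TPM for the perinatal chain Myh8. Myh1 had 3, 5 and 6 counts on day 1, and its summed counts rose 62.1-fold (95% interval 36.8 to 114, exact and for counting error only). Myh8 had 0, 5 and 2 counts on day 1 and did not pass the test (edgeR adjusted p = 0.0553).

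Other filament proteins followed. Mybph, a myosin binding protein, went from 0.850, 0.467 and 1.20 CPM to 120, 120 and 143 CPM (log2FC 7.24 ± 0.28). The fast light chain Mylpf went from 3.19, 2.21 and 4.70 CPM to 172, 183 and 185 CPM (log2FC 5.74 ± 0.23), and Myl1 rose 72.4-fold in summed counts (interval 49.6 to 110). Exceptions in the same list were the light chain gene Myl6b, at 16.4 ± 1.03 and 16.2 ± 1.24 CPM, and the myosin light chain kinase Mylk2, which fell from 8.95 ± 0.795 to 5.28 ± 0.427 CPM (log2FC -0.76, edgeR adjusted p = 0.000244).

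Of the troponins, which make the thin filament calcium sensitive, 7 rose by unequal amounts, and Tnni3, at 0.51 and 0.36 CPM on days 1 and 3, did not pass the test. Tnnc2 had a log2FC of 5.67, Tnnc1 4.88, Tnni1 4.57, Tnni2 2.98, Tnnt3 2.77, Tnnt2 1.60 and Tnnt1 1.32. The smallest of these belonged to genes with the highest day 1 levels, Tnnt2 at 27.7 ± 4.33 CPM and Tnnt1 at 29.6 ± 6.53 CPM. The muscle tropomyosin gene Tpm2 rose from 245 ± 8.78 to 576 ± 15.1 CPM. Tpm1 rose by a log2FC of 0.31, a call lost without any one of the 6 libraries, and Tpm3 fell by 0.22, a call lost without day 3 replicate 3.

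Some structural genes were already at a high level on day 1 and did not pass the test. Desmin (Des), the intermediate filament around Z-discs, stood at 1497, 1552 and 1574 CPM on day 1 and at 1548, 1482 and 1513 CPM on day 3. Actn3, the fast alpha-actinin, stood at 259, 238 and 287 CPM and then at 260, 265 and 235 CPM. Both pairs of groups overlapped, with a log2FC of -0.02 ± 0.087 and -0.04 ± 0.09. In the same list titin (Ttn) rose 2.05-fold, from 55.6 ± 8.15 to 114 ± 5.24 CPM, and the M-band protein Myom2 33.3-fold, from 2.10 ± 0.393 to 70.0 ± 6.40 CPM.

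Some Z-disc genes were nearly unread on day 1. Ankrd2, a stretch-responsive titin partner, had 1 count over the day 1 libraries and 15.6, 14.2 and 17.3 CPM on day 3. Nmrk2, a muscle enzyme of NAD synthesis outside these lists, had a count of 0 in each day 1 library and 5.05, 5.59 and 5.25 CPM on day 3, at least 41.5-fold above the floor of 3 counts per library.

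**Figure D3:**
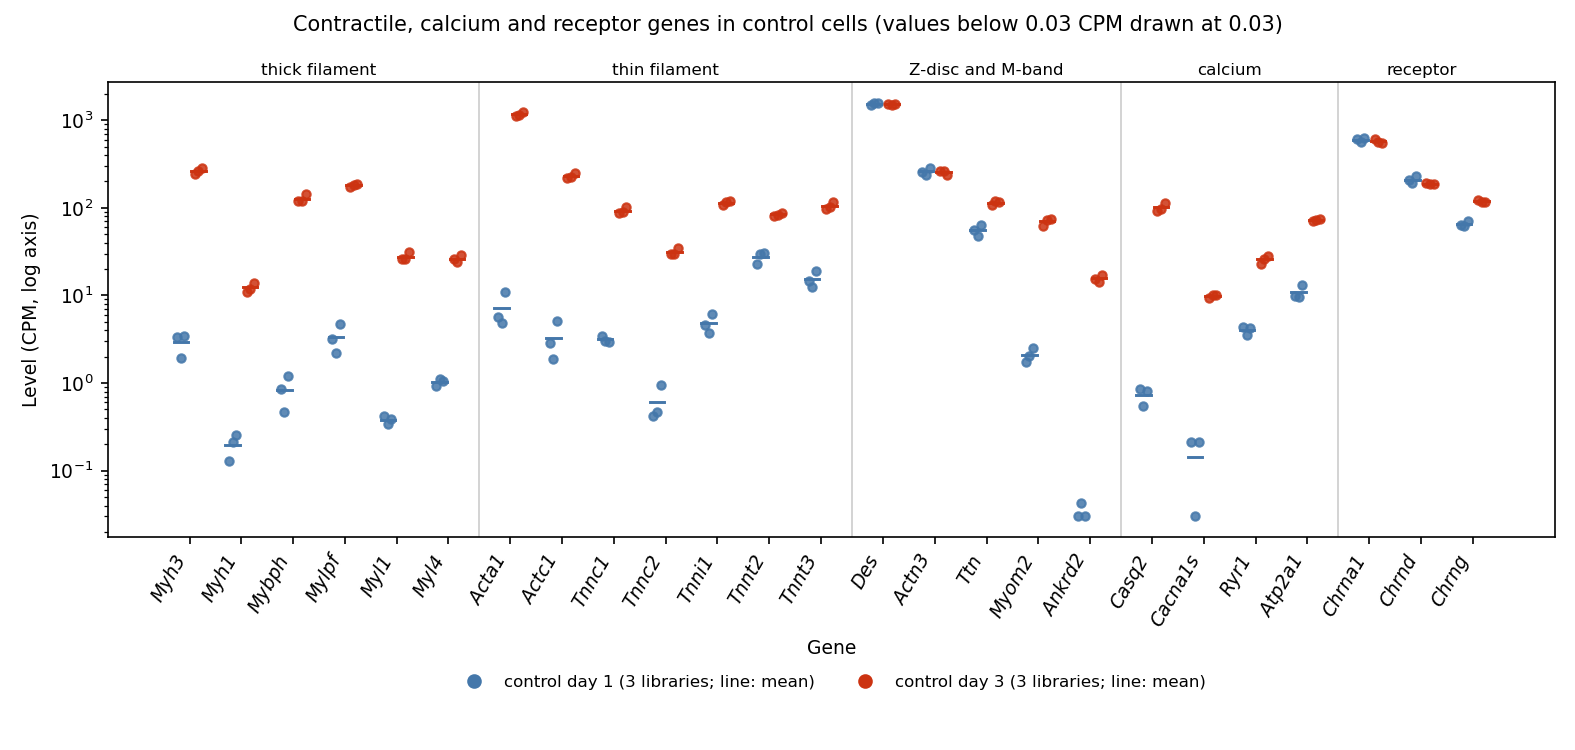
Level of 25 contractile, calcium-handling and receptor genes in each control library (CPM, log axis), with day 1 in blue, day 3 in red and a line at each mean of 3 libraries; values under 0.03 CPM are drawn at 0.03. Actins, myosins and troponins separate by up to 165-fold, whereas the points of Des, Actn3, Chrna1 and Chrnd overlap between days.

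Excitation-contraction coupling links the membrane's action potential to calcium release. Of 33 tested genes of this list 17 rose and 2 fell, or 1 fell on omission of any library except day 1 replicate 3 (median log2FC 0.86, or 0.59 with 2 members that were at 0 on day 1 set to their lower bounds). Calsequestrin 2 (Casq2), the calcium store of the reticulum, went from 0.850, 0.551 and 0.812 CPM to 92.4, 98.0 and 115 CPM (log2FC 7.10 ± 0.23, edgeR adjusted p = 6.37e-16). The voltage sensor Cacna1s had 5, 0 and 5 counts on day 1 and 9.36, 10.2 and 10.2 CPM on day 3. The release channel Ryr1 rose from 4.06 ± 0.467 to 25.8 ± 2.69 CPM and the calcium pump Atp2a1 from 10.9 ± 2.06 to 72.4 ± 2.14 CPM. Stac3, an adaptor of the voltage sensor, went against them and fell from 20.6 ± 1.44 to 14.6 ± 1.76 CPM (log2FC -0.49, edgeR adjusted p = 0.00394).

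The acetylcholine receptor, through which nerve excites muscle, was already expressed on day 1. Chrna1 stood at 604, 563 and 629 CPM on day 1 and at 613, 561 and 547 CPM on day 3, and Chrnd at 209 ± 18.6 and 189 ± 2.01 CPM. Neither passed the test, nor did the receptor kinase gene Musk and the scaffold gene Rapsn. Chrng, the embryonic receptor subunit, rose from 65.3 ± 4.48 to 118 ± 3.64 CPM (log2FC 0.85 ± 0.14, edgeR adjusted p = 0.0001). In all 8 of 20 tested members rose and 0 fell (1 without day 1 replicate 2), among them the agrin receptor Lrp4 (log2FC 0.95), acetylcholinesterase (Ache, 1.67) and the syntrophin Sntb1 (2.19).

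Of 23 tested genes of the membrane and dystrophin complex 10 rose and 3 fell, and their summed TPM was 3005 ± 47.9 on day 1 and 3015 ± 16.1 on day 3. Dmd, dystrophin itself, was listed at 0 in all 6 libraries; how reads were assigned to this gene was not checked, and differentiated muscle is known to express it, so the 0 does not show its absence. Trim72, which patches membrane tears, had 2 counts on day 1 and 12.1, 13.9 and 12.5 CPM on day 3. Of 34 tested energy genes 11 rose and 1 fell (median log2FC 0.27, or 0.24 with 1 member that was at 0 on day 1 set to its lower bound): muscle creatine kinase (Ckm) went from 0.510, 0.976 and 1.07 CPM to 54.6, 57.4 and 53.9 CPM, and the muscle subunit Cox6a2 of cytochrome oxidase from 1 count in all to 5.27, 6.07 and 6.90 CPM. The muscle phosphorylase Pygm rose 14.2-fold, from 0.765 ± 0.11 to 11.0 ± 0.962 CPM, and the lactate dehydrogenase Ldhb fell by 0.69 on the log2 scale.

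**Figure D4:**
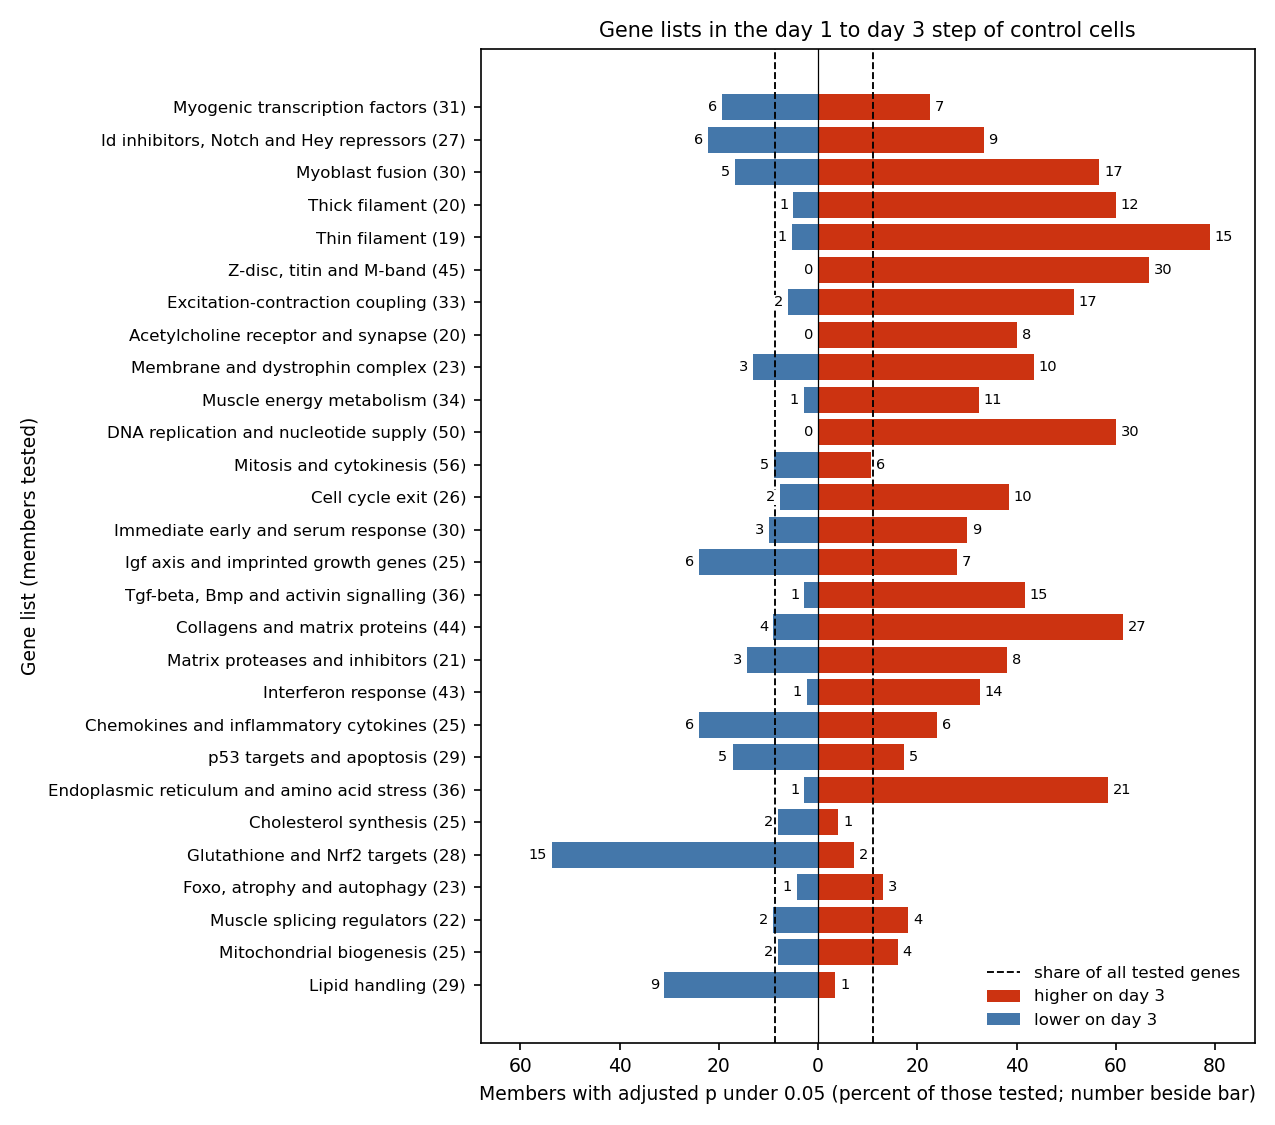
Share of tested members of 28 gene lists with an adjusted p under 0.05, higher on day 3 to the right and lower to the left (percent, with the number of genes beside each bar and the number tested in parentheses); dashed lines are the shares over all tested genes, 11.0% and 8.68%. The longest bars to the right are thin filament, Z-disc, matrix, thick filament and DNA replication, with 15 to 30 genes each but 12 for the thick filament, and the longest to the left is glutathione and Nrf2 targets, with 15 of 28.

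Genes of DNA replication rose slightly while differentiation proceeded. Of 50 tested members 30 rose and 0 fell, with a median log2FC of 0.32 and a largest value of 0.76. Rrm2, the regulated subunit of the enzyme that makes deoxynucleotides, stood at 105, 106 and 107 CPM on day 1 and at 158, 178 and 158 CPM on day 3 (log2FC 0.64 ± 0.096, edgeR adjusted p = 3.32e-05). The DNA polymerase gene Pold1 went from 23.4 ± 1.02 to 39.8 ± 0.99 CPM, Pola1 from 13.2 ± 1.13 to 21.6 ± 2.12 CPM, and the helicase gene Mcm2 from 66.7 ± 1.48 to 86.1 ± 4.8 CPM. Day 3 replicate 2 was the highest library for Rrm2, Pola1 and Mcm2, and without it the number of members that rose was 16; without day 1 replicate 2 it was 19.

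As a list, mitotic genes did not share this rise. Of 56 tested members 6 rose and 5 fell, shares of 10.7% and 8.93% that lie close to those of all genes. The median log2FC of the list was 0.10, beside 0.02 over all tested genes. The proliferation marker Mki67 did not pass (121, 119 and 119 CPM on day 1, 134, 156 and 118 CPM on day 3). Of the 6 members that rose only Aurkb, a kinase of chromosome segregation, is named here (41.5 ± 2.12 to 56.7 ± 7.97 CPM). All 5 that fell are named next. Cdc25b, the phosphatase that starts mitosis, fell from 83.5, 85.4 and 83.0 CPM to 65.9, 67.0 and 61.8 CPM (log2FC -0.37 ± 0.076, edgeR adjusted p = 0.00101), and Cdc20, the activator of anaphase, fell by 0.40. Ccnb2, Cenpa and Pttg1 fell by 0.29, 0.41 and 0.36. All 3 of these calls were lost without day 1 replicate 3 or day 3 replicate 3, and without either of these libraries 2 members were lower. The number that rose was 1 without day 1 replicate 1, day 1 replicate 2 or day 3 replicate 2, and 10 without day 3 replicate 3.

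Of 26 tested genes on the list of cell cycle exit, which holds drivers of the cycle as well as brakes, 10 rose and 2 fell. The 10 included the drivers Ccnd2 (log2FC 0.35) and Cdk2 (0.25), and the inhibitors Cdkn1b (0.03) and Cdkn1c (0.08) did not pass the test. Cyclin D1 (Ccnd1), which couples growth factors to the cycle, fell from 238, 245 and 235 CPM to 149, 158 and 153 CPM (log2FC -0.64 ± 0.096, edgeR adjusted p = 2.81e-05). The inhibitor Cdkn1a rose from 360 ± 6.91 to 497 ± 4.73 CPM and the retinoblastoma gene Rb1 from 37.9 ± 2.29 to 54.5 ± 0.454 CPM. Ccnd3, the D cyclin of myotubes, stood at 227 ± 12.1 and 272 ± 6.46 CPM and missed the threshold (edgeR adjusted p = 0.0784). Gadd45g, a growth arrest gene, rose from 41.9 ± 3.38 to 84.7 ± 6 CPM.

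**Figure D5:**
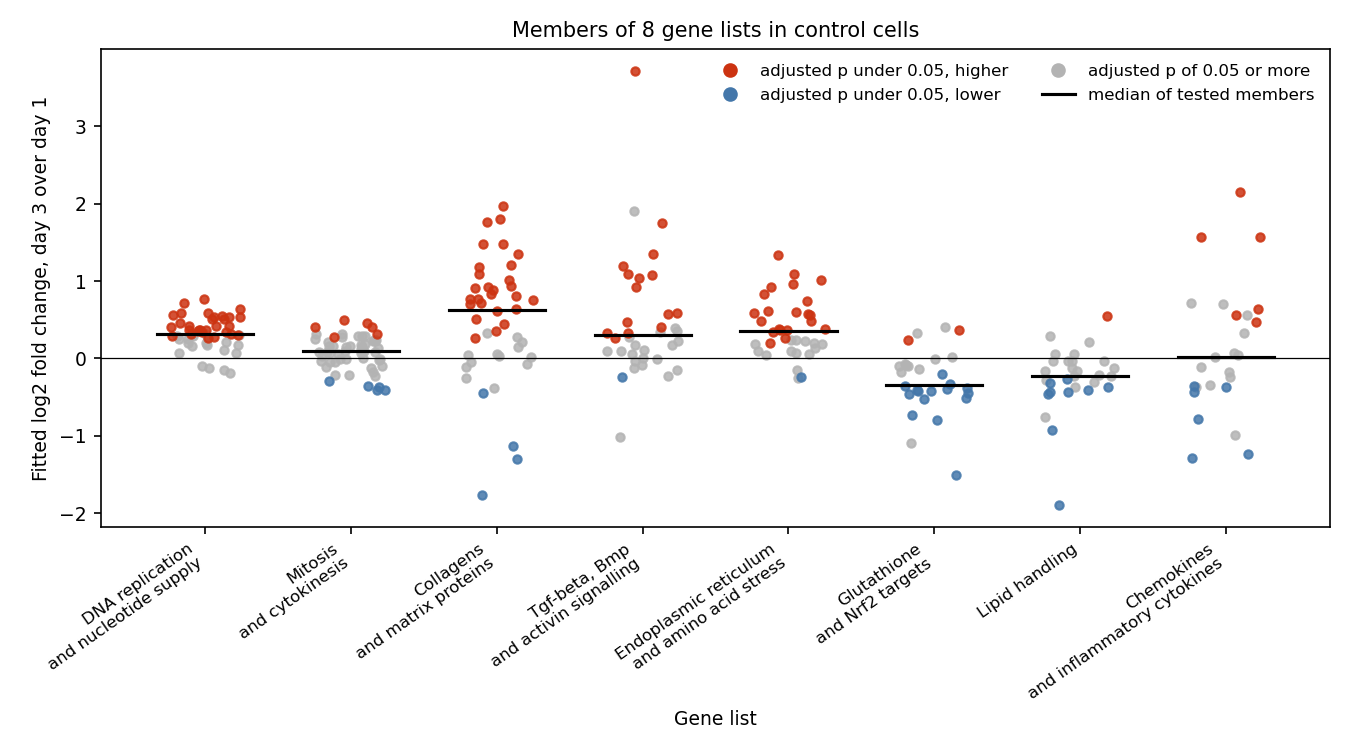
Fitted log2 fold change of day 3 over day 1 for each tested member of 8 gene lists, coloured where the adjusted p was under 0.05, with a line at the median of the list. Replication genes sit in a narrow band around 0.32, matrix genes spread from -1.77 to 1.97, and glutathione and Nrf2 targets lie mostly below 0 with a median of -0.34.

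Of 44 tested collagens and matrix proteins 27 rose and 4 fell (median log2FC 0.63), and their summed TPM went from 13558 ± 675 to 19834 ± 481. Col1a1, the main chain of type I collagen, went from 1571, 1645 and 1448 CPM to 5435, 5781 and 5106 CPM (log2FC 1.81 ± 0.18, edgeR adjusted p = 8.49e-08). Col3a1 rose from 3604 ± 114 to 6105 ± 93.9 CPM, periostin (Postn) from 104 ± 1.39 to 353 ± 22.7 CPM and the elastic fibre protein Fbln5 from 19.6 ± 1.11 to 76.6 ± 4.38 CPM. Fn1, fibronectin, was the highest of the list in counts, at 11109 ± 798 and 13954 ± 246 CPM, and missed the threshold (edgeR adjusted p = 0.0522).

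The 4 matrix genes that fell were Mgp, Spp1, Col18a1 and Fbln1. Mgp, an inhibitor of calcification, stood at 100, 91.7 and 110 CPM on day 1 and at 35.8, 31.0 and 22.1 CPM on day 3 (log2FC -1.77 ± 0.17). Osteopontin (Spp1) fell from 1507 ± 11.9 to 614 ± 11.9 CPM and Col18a1 from 848 ± 28.6 to 386 ± 11.4 CPM. Fbln1 fell by 0.45 on the log2 scale. The summed level of 6 fibroblast markers went from between 28.9 and 30.4 CPM to between 21.2 and 25.2 CPM, with 1 of 3 tested higher, 1 lower and Thy1 and Tcf21 at 0 in all 6 libraries. Osteoblast markers went from between 4.70 and 5.94 CPM to between 1.52 and 2.39 CPM. Their part in the matrix changes was not tested.

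Markers of smooth muscle, listed as a check on cell identity, rose as well. All 5 tested of 6 were higher, while Myh11 did not pass the filter on low counts and was not tested. The summed level of the 6 markers went from between 1163 and 1212 CPM to between 3654 and 3911 CPM. Acta2, smooth muscle actin, went from 819, 728 and 785 CPM to 3081, 3170 and 2860 CPM (log2FC 1.97 ± 0.15), and Tagln, transgelin, from 12.1, 9.80 and 11.4 CPM to 194, 190 and 176 CPM (log2FC 4.07 ± 0.22, edgeR adjusted p = 3.57e-12). Cnn1, calponin, rose 6.97-fold and the cytoskeletal genes Synpo2 and Smtn by 0.93 and 0.42 on the log2 scale. Skeletal myoblasts also express several of these genes, and the part of any other cell type in the rise was not tested.

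Of 36 tested genes of transforming growth factor, Bmp and activin signalling 15 rose and 1 fell (median log2FC 0.30), and the lower call was lost without day 1 replicate 1, day 1 replicate 2, day 3 replicate 2 or day 3 replicate 3. The ligand gene Tgfb2 went from 31.8 ± 2.07 to 60.5 ± 1.17 CPM and activin A's subunit Inhba from 8.47 ± 2.02 to 19.4 ± 0.48 CPM. Antagonists rose too: noggin (Nog) 3.36-fold, from 1.56 ± 0.223 to 5.25 ± 0.921 CPM, and follistatin (Fst), an inhibitor of activin and myostatin, from 23 counts in all on day 1 to 4.83, 3.86 and 4.38 CPM, a 13.4-fold rise in summed counts (interval 8.74 to 21.4). The fitted log2FC of Fst was 3.72, and 4.31 without day 1 replicate 2. Ctgf and Cyr61, matrix-associated genes that respond to serum response factor and Yap, rose by a log2FC of 1.64 and 1.11.

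The imprinted gene H19, a noncoding RNA of growing muscle, went from 518, 532 and 675 CPM to 2287, 2246 and 2592 CPM (log2FC 2.05 ± 0.097, edgeR adjusted p = 2.08e-13). Its neighbour Igf2, an autocrine growth factor of myoblasts, had 4, 4 and 2 counts on day 1 and 2.35, 3.03 and 4.73 CPM on day 3, a 23.8-fold rise in summed counts (interval 12.7 to 50.3). Igfbp5, an Igf binding protein, fell from 2275 ± 220 to 1301 ± 69.1 CPM. Over the whole Igf and imprinted list 7 of 25 tested genes rose and 6 fell, and without day 1 replicate 2, day 3 replicate 2 or day 3 replicate 3 the number that fell was as low as 3.

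Metabolic and stress lists differed in direction. Of 36 tested genes of endoplasmic reticulum and amino acid stress 21 rose and 1 fell (median log2FC 0.35). Leaving out 1 library gave 14 to 19 members that rose, and the lower call was lost on omission of any library except day 3 replicate 2. Trib3, a pseudokinase induced by Atf4, rose from 9.69, 8.95 and 9.18 CPM to 27.1, 21.4 and 21.8 CPM (log2FC 1.34 ± 0.18), the mitochondrial folate enzyme gene Aldh1l2 from 52.8 ± 4.74 to 103 ± 5.48 CPM and asparagine synthetase (Asns) from 53.9 ± 3.57 to 81.2 ± 11.7 CPM. Hspa5, the chaperone of the unfolded protein response, did not pass the test (log2FC 0.22 ± 0.10).

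Of 28 tested glutathione and Nrf2 target genes 15 fell, 2 rose and 11 did not pass the test, with a median log2FC of -0.34. Gstt1, a glutathione transferase, went from 12, 15.4 and 10.9 CPM to 4.40, 4.94 and 4.16 CPM (log2FC -1.51 ± 0.17, edgeR adjusted p = 8.14e-07). Gstm1 fell from 168 ± 13.5 to 96.8 ± 18.1 CPM, the NADPH-producing enzyme gene G6pdx from 113 ± 3.96 to 79.0 ± 0.958 CPM and Txnrd1, thioredoxin reductase, from 146 ± 8.3 to 109 ± 4.91 CPM. Hmox1, a classical Nrf2 target, did not pass the test (80.5 ± 6.34 and 79.7 ± 8.59 CPM). The 2 higher members, Gclc and Slc7a11, lost their calls in 6 and 5 of the 6 fits that leave out a library. Of 29 tested lipid genes 9 fell and 1 rose, with Elovl6, an enzyme of fatty acid elongation, from 140 ± 6.09 to 73.6 ± 5.00 CPM. Of 25 tested genes of cholesterol synthesis 1 rose and 2 fell, and 1 fell without day 1 replicate 3, day 3 replicate 1 or day 3 replicate 3.

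Among genes with a mean of at least 5 CPM on day 1 and no overlap between days, Saa3 had the most negative fold change. Saa3, an acute phase protein, stood at 7.26, 6.45 and 5.04 CPM on day 1 and at 1.70, 0.433 and 0.130 CPM on day 3 (log2FC -3.04 ± 0.46, edgeR adjusted p = 3.49e-05). Without day 3 replicate 1, the highest of its group, its log2FC was -4.44. Ace, the angiotensin-converting enzyme, fell from 21.0, 21.2 and 18.0 CPM to 4.48, 3.34 and 5.81 CPM (log2FC -2.14 ± 0.24) and Traf1, an adaptor of tumour necrosis factor receptors, from 6.04 ± 0.47 to 1.32 ± 0.172 CPM. The protease inhibitors Spint1 and Slpi fell 3.93-fold and 3.62-fold, the membrane protein gene Ifitm1 3.85-fold and the cytokine receptor subunit Il2rg 3.10-fold.

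Inflammatory genes as a list were mixed. Of 25 tested chemokines and cytokines 6 rose and 6 fell, and 3 fell without day 1 replicate 3. The neutrophil attractants Cxcl1 and Cxcl5 fell by 1.29 and 1.24 on the log2 scale, and the prostaglandin enzyme gene Ptgs2 rose from 25.1 ± 4.81 to 74.5 ± 5.06 CPM. Of 43 tested interferon response genes 14 rose and 1 fell (median log2FC 0.48, or 0.45 with 3 members that were at 0 on day 1 set to their lower bounds), at low levels: Isg15 went from 1.84 ± 0.0538 to 3.59 ± 0.288 CPM and Ifit1 from 0.794 ± 0.0471 to 3.31 ± 0.469 CPM. Without day 1 replicate 3 the number that rose was 7, and without day 3 replicate 1 it was 9; the single lower call was lost without day 3 replicate 1 or 2.

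The same interval was measured in the libraries labelled KO, in which Runx1 mRNA was not lower (130.6 ± 11.4 CPM on day 1, against 102 ± 6.12 CPM in control cells), so the genotype labels could not be checked at the RNA level. An interaction term, the control step minus the step in the libraries labelled KO, had an edgeR adjusted p under 0.05 for 858 genes (6.05% of those tested). The control step was the more positive for 366 of these and the more negative for 492. Among the interferon genes 30 of 43 tested had such a difference: Isg15 rose by 4.92 on the log2 scale in the libraries labelled KO, against 0.96 in control cells. The next largest number was that of collagens and matrix proteins, with 22 of 44 tested. Among the mitotic genes 8 of 56 tested had one, such as Cdc25b with a log2FC of 0.34 in the libraries labelled KO against -0.37 in control cells. Myog rose by 3.87 in the libraries labelled KO and by 3.91 in control cells (difference 0.04 ± 0.37, edgeR adjusted p = 0.971). Leaving out any 1 of the 12 libraries gave between 595 and 1084 genes with an interaction.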

How the data were processed

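Poly(A) RNA of C2C12 cells was sequenced, 23 libraries in 8 groups. The deposited tables hold RSEM estimated counts per gene, as whole numbers, and the authors' TPM; Bowtie2, RSEM and mm10 are named per the submitters' processing notes, with no roles or versions given in the sources used here. The last day is 6 in the sample titles and 5 in the series text.

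Counts were tested with edgeR 4.0.16 (R 4.3.3): filterByExpr (minimum count 10, total 15), TMM scaling and a quasi-likelihood F-test on a group-means model over all 23 libraries, which share 1 estimate of the spread (15 residual degrees of freedom). The contrast was control day 3 minus day 1, adjusted by Benjamini-Hochberg over 14187 genes, and the standard error is the absolute log2FC divided by the square root of F. CPM used TMM library sizes. Genes at 0 on day 1 were compared with a floor of 3 counts per library, and those with under 30 day 1 counts by a count ratio with a 95% exact interval, where used; both cover counting error only. The test was checked on simulated data with known changes. Alternatives were DESeq2 1.42.0, limma 3.58.1 on log2(TPM + 0.1) and log2(TPM + 1), other scalings and filters, a replicate block and leaving out each library.

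The comparison and the 28 gene lists were chosen with earlier results of these data known. Genes named were set regulators and fusion genes, the 12 largest changes in each direction and up to 4 called members of each list in each direction with at least 5 CPM, and up to 3 members opposite to their list, from which those printed were selected. Further list members, such as Mylpf, Ttn, Ryr1, Actn3 and Fn1, and the CArG box were chosen after their values were seen. Promoters came from RefSeq (GRCm38.p6). No genome sequence or protein table was used, and some genes are not reported here.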

Additional observations from a re-analysis of the deposited data

Results flagged for a closer look

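Of the 144 tested genes named in the report, 56 changed by a different amount between day 1 and day 3 in control cells than in the libraries labelled KO (interaction term, edgeR quasi-likelihood test with Benjamini-Hochberg adjustment, p under 0.05; 3 libraries in each of the 4 groups). Over all tested genes 858 of 14187 (6.05%) had such a difference. Many named genes were chosen for their change in the control step, which is part of this term. The larger share among the named genes is therefore no result about them. The values below are the control log2FC minus that in the libraries labelled KO. The control step was the more positive for 19 genes, among them Ctgf 1.97, Cnn1 1.93, Acta1 1.78, Tagln 1.70, Aldh1l2 1.59 and Inhba 1.47. Further positive differences were Nog 1.30, Fn1 0.97, Trib3 0.97, Ptgs2 0.96, Cyr61 0.87, Postn 0.78 and Tgfb2 0.72. Smaller positive differences were Synpo2 0.70, Gadd45g 0.64, Vgll3 0.61, Ccnd1 0.52, Ccnd2 0.51 and Neo1 0.41. It was the more negative for 37 genes, from Isg15 -3.96, Saa3 -3.30, Ifit1 -2.63, Elmo1 -2.60, Ace -2.50, Atp2a1 -2.37, Slpi -1.96 and Fbln5 -1.94. These were followed by Mgp -1.86, Cdkn1c -1.78, Id1 -1.48, Pygm -1.45, Sntb1 -1.29, Lrp4 -1.20, Mymk -1.20, Myl6b -1.16 and Gstt1 -1.08. Next came Spint1 -1.08, Stac3 -1.08, Cxcl1 -1.01, Tnnt2 -0.99, Id3 -0.97, Cxcl5 -0.96, Traf1 -0.95 and Chrng -0.90. Differences closer to 0 were Fbln1 -0.87, Myod1 -0.80, Myf5 -0.79, Pttg1 -0.76, Chrnd -0.74, Cdc25b -0.71, Cenpa -0.66 and Spp1 -0.61. The remaining negative differences were Ccnb2 -0.58, Cdc20 -0.57, Ccnd3 -0.54 and Hey1 -0.50. Of the 56, 43 kept this call without each of the 12 libraries in turn and 13 lost it without at least 1. These were Cdkn1c, Cenpa, Sntb1 and Spint1 (lost in 7 of the 12 omissions), Traf1 and Trib3 (6), Ccnd3 (5), Hey1 and Mymk (4), Ccnd1 and Ptgs2 (3), Myod1 (2) and Gadd45g (1). The difference of Saa3 was -4.70 without control day 3 replicate 1. In the fit on log2(TPM + 1) the sign turned for Fbln5. The part of cell-type composition in these differences was not tested.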

How the results depend on the processing

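The number of genes called in the control step (2797) was 4642 when only the 6 libraries were fitted, with 2332 lower, a fit with fewer residual degrees of freedom and its own spread. It was 1623 (928 higher, 695 lower) at an adjusted p under 0.01 and 661 (467 and 194) when an absolute log2FC of at least 1 was also required. The genes with a genotype difference (858) numbered 445 and 300 under these criteria. Other scalings, filters and tools gave 2433 to 3027 genes in the control step and 767 to 1177 for the genotype difference. Fitting only control libraries gave 3657 genes in the control step, and fitting only the 4 groups compared gave 663 for the difference. limma on log2(TPM + 0.1) gave 1558 higher and 875 lower genes, against 1566 and 1231. Leaving out 1 library gave 2036 to 2171 genes in the control step and 595 to 1084 for the difference.

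Same-numbered replicates of the 2 days did not deviate together (correlations 0.025, -0.064 and -0.073 across genes). Different-numbered replicates had correlations of -0.047 to 0.104. With 3 libraries per day this check could not exclude a shared culture or batch, and the libraries were treated as unpaired. With the replicate block 2642 genes were called (1475 higher, 1167 lower), and 762 for the genotype difference.

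Of the 144 tested genes named, 123 were called, and 112 of these kept their call without each of the 6 libraries. Many of them were chosen because they were called with large changes, so this share does not describe all called genes. No called log2FC of the control step changed sign. Values near 0 that were not called did so. In limma on log2(TPM + 0.1) and on log2(TPM + 1), log2FC was 0.0581 and 0.0577 for Actn3, 0.014 and 0.014 for Des, 0.02 and 0.0198 for Hmox1, 0.013 and 0.0127 for Mef2a, and 0.0151 and 0.0147 for Myl6b. Leaving out single libraries gave -0.1124 to 0.0292 for Actn3, -0.1069 to 0.0395 for Hmox1, -0.0619 to 0.0148 for Mef2a, -0.0813 to 0.019 for Myl6b, -0.0144 to 0.072 for Cdkn1b and -0.0618 to 0.2 for Cdkn1c. The genotype difference reversed in limma on log2(TPM + 1) for Fbln5 (0.22). The cause of these shifts was not tested. A pseudocount compresses changes of genes near the floor of 3 counts, which limits how well their fold is known.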
